A study of Homo sapiens with 31 samples.

Results

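Back-splice reads of ZFPM2 and SUCO were examined library by library, because their levels at day 45 of differentiation differed widely between replicate cultures. A circRNA structure was taken as a member when the transcript it is named after belongs to ZFPM2 or SUCO, or, where that transcript was missing from the annotation used, when its ends are exon ends of the gene. This gave 7 structures with 486 reads for ZFPM2 and 19 structures with 2595 reads for SUCO, 26 of the 55371 structures in the deposited table and 2 of the 8095 genes with an assigned structure. For SUCO, 16 structures with 2292 reads matched by transcript, and E6-E3, E6-E4 and E21-E19 by exon ends. The genes were chosen by their read counts in the untreated libraries, above all the high counts of untreated day 45 replicate 1, so contrasts with untreated day 45, and day 0 against untreated day 90, are given below as descriptions without a test.

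H9 cells, an established human embryonic stem cell line, were plated in triplicate and differentiated towards retina, and ribosomal RNA-depleted total RNA was sequenced from 15 libraries. There were 3 libraries each of undifferentiated cells at day 0, untreated cultures at day 45 and day 90, and cultures at day 45 and day 90 that received recombinant human IGF-1, a growth factor, at 5 ng/ml to day 37 and 10 ng/ml afterwards. Cells were harvested without selecting embryoid bodies, the aggregates in which retinal tissue forms, so each library is a mixture, and fewer cells of a type cannot be told apart from less RNA per cell. Libraries held 14992 to 108946 back-splice reads, fewest at day 0 and most in untreated day 45 replicate 1.

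A circRNA forms when the end of an exon is joined to the start of the same or an earlier exon of its transcript, a back-splice, and a read across that joint marks it. ZFPM2, also called FOG2, is a zinc finger protein that binds GATA transcription factors, recruits corepressors such as CTBP proteins and the NuRD complex, and is known for its part in heart development. SUCO, the SUN domain containing ossification factor, is a membrane protein of the endoplasmic reticulum that is known for its role in collagen production by bone-forming osteoblasts.

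ZFPM2 lies on chromosome 8 (hg19, 105602961 to 106816767, plus strand) and SUCO on chromosome 1 (hg19, 172501489 to 172580973, plus strand).

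Structures are named here by exon numbers of 1 transcript a gene, ENST00000407775 for ZFPM2 and ENST00000367723 for SUCO, the donor exon first, so that E9-E3 joins the end of exon 9 to the start of exon 3. The leading ZFPM2 structure, E3-E2 (106431372 to 106456609), spans 2 exons of 261 bases in all and holds 430 of the 486 reads.

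The leading SUCO structure, E9-E3 (172520652 to 172539870), spans 7 exons of 876 bases and holds 1728 of the 2595 reads. The genome bases across the joints of the 6 SUCO structures with at least 20 reads are shown because they share exon ends in part while their levels in untreated day 45 replicate 1 differed. Lower case is the last 30 bases of the donor exon and capitals are the first 30 bases of the acceptor exon, all read from GRCh37 on the plus strand.
SUCO E9-E3: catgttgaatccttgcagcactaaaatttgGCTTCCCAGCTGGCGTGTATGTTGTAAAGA
SUCO E9-E4: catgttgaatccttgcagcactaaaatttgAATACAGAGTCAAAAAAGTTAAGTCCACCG
SUCO E6-E3: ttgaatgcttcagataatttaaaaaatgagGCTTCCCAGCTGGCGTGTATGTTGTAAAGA
SUCO E6-E4: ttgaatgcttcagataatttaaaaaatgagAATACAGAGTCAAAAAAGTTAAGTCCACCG
SUCO E14-E3: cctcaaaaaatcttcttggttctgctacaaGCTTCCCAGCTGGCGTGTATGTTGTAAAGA
SUCO E18-E3: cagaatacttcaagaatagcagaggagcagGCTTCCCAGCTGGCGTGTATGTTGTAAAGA
All 6 joints combine 4 donor exons with 2 acceptor exons, and each is bordered in the genome by GT after the donor and AG before the acceptor.

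ZFPM2 back-splice reads were absent at day 0 and abundant in only 2 of the 12 later libraries, both of them replicate 1 at day 45. No ZFPM2 read was found in the 3 day 0 libraries, which allows up to 0.00737 RPM (reads per 1000000 sequenced reads) when 3 counts over the group are taken as the limit. The untreated day 45 libraries held 219 reads in replicate 1, 7 in replicate 2 and 17 in replicate 3, or 1.98, 0.0506 and 0.116 RPM. With IGF-1, the day 45 libraries held 161, 17 and 6 reads, or 1.52, 0.127 and 0.0428 RPM. Replicate 1 was thus high in both treatments, while replicates 2 and 3 of either treatment overlapped the day 90 libraries. Untreated day 90 libraries held 3, 7 and 9 reads (0.0217, 0.0505 and 0.0587 RPM), and day 90 libraries with IGF-1 held 12, 10 and 18 reads (0.0907, 0.0645 and 0.123 RPM).

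Replicate 1 carried 92.2% of the summed ZFPM2 RPM of untreated day 45, the highest share among 686 genes with at least 100 reads in those libraries, where the median share was 44.01%. It carried 90.0% of the ZFPM2 RPM of day 45 with IGF-1, again the highest share, of 538 genes, with a median of 31.0%. As a ratio, replicate 1 stood 23.7-fold above the mean of replicates 2 and 3 without IGF-1 and 17.9-fold above it with IGF-1. Over all back-splice reads the same ratios were 1.56 and 0.892. The labels do not say that libraries of different groups with the same number share a plating or a day. Over 1906 genes, however, the untreated and IGF-1 libraries of the same number at day 45 deviated together from their group means, with correlations of 0.386, 0.213 and 0.202 for replicates 1, 2 and 3. Untreated replicate 2 had nearly the same correlation with IGF-1 replicate 3 (0.195), and untreated replicate 3 had 0.0666 with IGF-1 replicate 2. Deviations from a mean of 3 libraries depend on each other, so these values do not show that replicates 2 and 3 match by number.

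In SUCO, untreated day 45 replicate 1 had the highest RPM. SUCO reads were found at day 0, with 15, 13 and 9 reads in the 3 libraries, or 0.120, 0.0914 and 0.0642 RPM. Untreated day 45 libraries held 646, 239 and 185 reads, or 5.83, 1.73 and 1.26 RPM. Day 45 libraries with IGF-1 held 78, 203 and 171 reads, or 0.738, 1.52 and 1.22 RPM, so that here replicate 1 was the lowest of the 3. Untreated day 90 libraries held 166, 159 and 162 reads (1.198, 1.15 and 1.06 RPM), and day 90 libraries with IGF-1 held 243, 163 and 143 reads (1.84, 1.05 and 0.980 RPM).

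Untreated day 45 replicate 1 carried 66.1% of the summed SUCO RPM of its group, rank 8 of the 686 genes. With IGF-1 the share of replicate 1 was 21.2%, rank 492 of 538. The coefficient of variation of SUCO RPM over 3 libraries was 85.5% at untreated day 45 and 6.29% at untreated day 90. The latter rests in part on the same averaged read number used for replicates 1 and 2 of that group. In the untreated day 90 group replicate 1 held 35.2% of the SUCO RPM, the second highest share of 472 genes, whose median was 21.5%. That library held 42858 back-splice reads, the fewest of its group. As a share of back-splice reads, SUCO there stood at 3873, 2143 and 1734 per 1000000 in replicates 1, 2 and 3, against 5930, 2662 and 2072 at untreated day 45. Means were 2584 ± 1136 and 3555 ± 2078 (SD, n = 3), so the small spread at day 90 did not hold on this scale. On this scale replicate 1 was therefore the highest library in both untreated groups. It was also the highest at day 0 (1001, 860 and 502) and at day 90 with IGF-1 (2748, 2218 and 1689). At day 45 with IGF-1 it was the lowest (1288, 2179 and 2073).

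**Figure D1:**
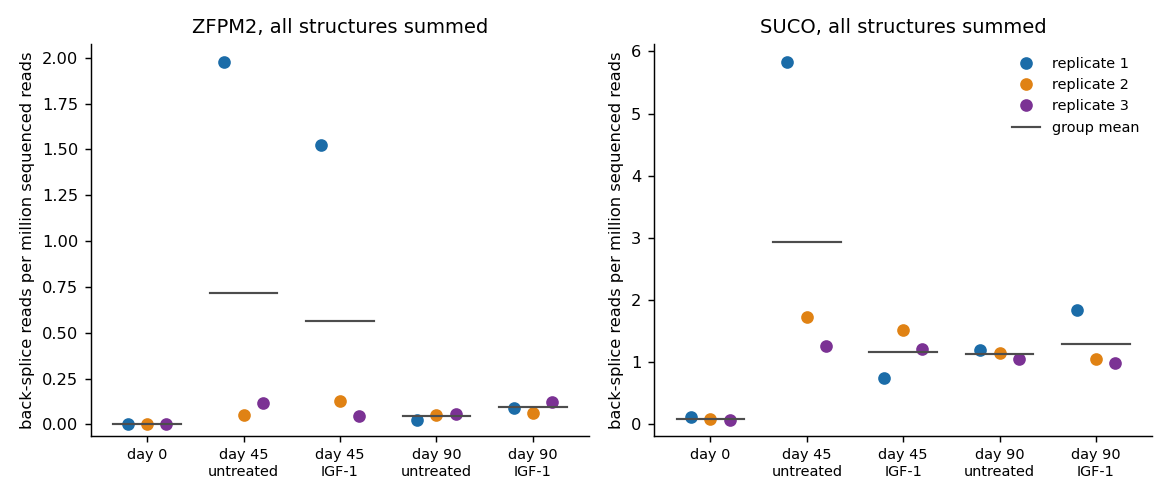
Summed back-splice level of ZFPM2 (left) and SUCO (right) in each of the 15 libraries, in RPM on linear axes; points are libraries coloured by replicate number and lines are group means of 3 libraries. ZFPM2 is high in replicate 1 of both day 45 groups (1.98 and 1.52), and SUCO is highest in replicate 1 of untreated day 45 (5.83).

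In ZFPM2 the excess was spread over its structures. E3-E2 had 190, 6 and 15 reads in untreated day 45 replicates 1, 2 and 3 and 147, 13 and 6 with IGF-1. E4-E2, which adds exon 4, had 15, 1 and 1 reads untreated and 9, 3 and 0 with IGF-1. Replicate 1 was the highest library for both structures in both treatments. Untreated day 90 libraries had 3, 6 and 7 reads of E3-E2, those with IGF-1 had 11, 9 and 17, and E4-E2 had 0 or 1 read in each of these 6. Of the other 5 ZFPM2 structures, with 1 to 13 reads each, E5-E2 had 7 of its 13 reads in untreated day 45 replicate 1 and 4 in replicate 1 with IGF-1. Without E3-E2, replicate 1 still held 29 of the 32 reads of untreated day 45. E3-E2 made up 86.8% of the ZFPM2 reads of untreated day 45 replicate 1 (95% Wilson interval 81.6 to 90.6) and 91.3% of those of IGF-1 replicate 1 (85.9 to 94.7), beside 88.5% over all libraries. Such intervals cover counting error only, because reads that carry no molecular identifier can be copies of 1 molecule.

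In SUCO the excess was largest in the leading structure. E9-E3 had 541, 153 and 109 reads at untreated day 45, 4.88, 1.11 and 0.744 RPM. E9-E4, with the same donor, had 59, 41 and 21 reads, 0.533, 0.296 and 0.143 RPM. Together with 1 further structure of 3 reads, the exon 9 donor gave 601 of its 926 untreated day 45 reads in replicate 1, 4.73-fold the mean RPM of replicates 2 and 3. Alone, E9-E3 had a ratio of 5.28 and E9-E4 one of 2.42, and as a share of back-splice reads E9-E4 was at 542, 457 and 235 per 1000000. All SUCO structures other than E9-E3 had 105 of 267 reads in replicate 1, a ratio of 1.66, close to the 1.56 of all back-splice reads. Structures with other donors than exon 9 had 45 of 144 reads in replicate 1, a ratio of 1.17. Among them, E6-E3 had 17, 16 and 21 reads, E18-E3 had 6, 13 and 17, E6-E4 had 10, 9 and 6, and E14-E3 had 7, 5 and 5. Replicate 1 was the lowest of the 3 in E18-E3 RPM (0.0542) although it used the same acceptor, exon 3, as E9-E3.

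**Figure D2:**
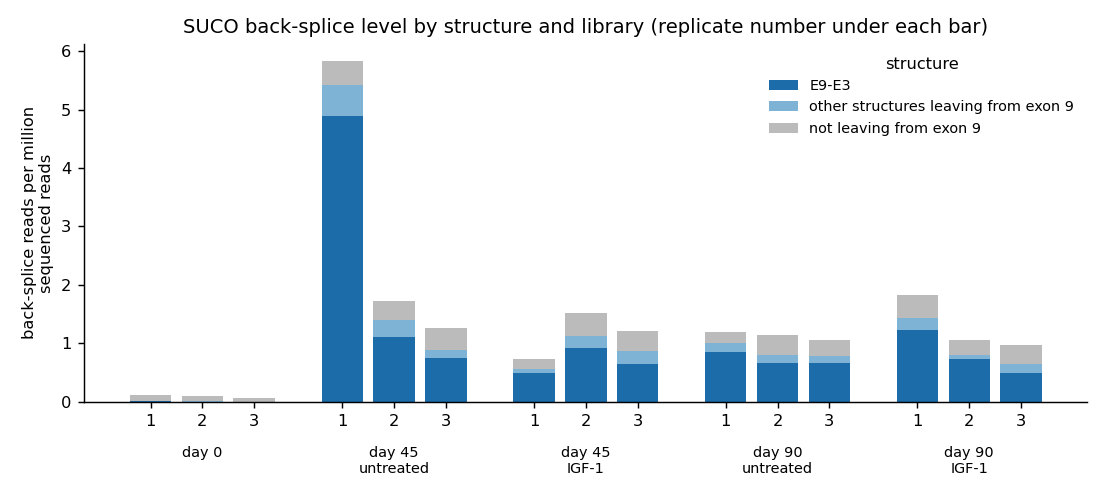
SUCO back-splice level in each library as stacked bars (RPM, linear axis from 0), split into E9-E3, other structures with exon 9 as donor, and all structures with another donor. In untreated day 45 replicate 1 the exon 9 donor gave 5.43 and the other donors 0.406, against 0.325 to 0.368 for other donors in replicates 2 and 3.

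E9-E3 therefore took a larger share of SUCO reads in that library than in any other. Its share was 83.7% there (Wilson interval 80.7 to 86.4) and 64.0% (57.8 to 69.8) and 58.9% (51.7 to 65.8) in replicates 2 and 3. In the other later libraries it ranged from 50.3% in day 90 IGF-1 replicate 3 to 70.5% in untreated day 90 replicate 1. At day 0 only 1 of 37 SUCO reads was E9-E3, 2.70% (0.479 to 13.8), and the most frequent structures were E6-E4 with 11 reads and E6-E3 with 9.

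**Figure D3:**
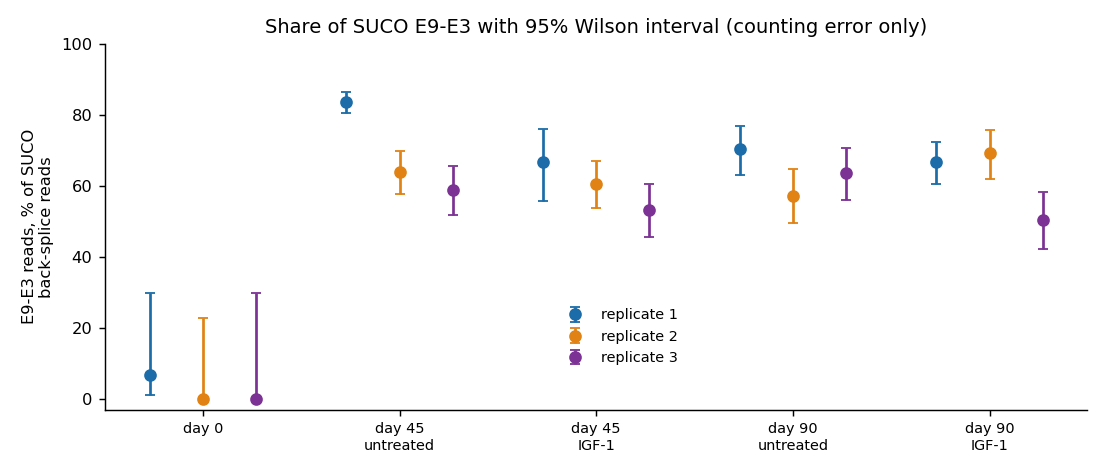
Share of SUCO back-splice reads that are E9-E3 in each library, in percent, with 95% Wilson intervals that cover counting error only; colours mark the replicate number. Untreated day 45 replicate 1 lies at 83.7%, the other later libraries between 50.3 and 70.5%, and the day 0 libraries between 0 and 6.67%.

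Values of the other groups for the printed SUCO structures follow in the order of replicates 1, 2 and 3. E9-E3 had 52, 123 and 91 reads at day 45 with IGF-1, 117, 91 and 103 at untreated day 90, and 162, 113 and 72 at day 90 with IGF-1. E9-E4 had 8, 28 and 31 reads, then 22, 21 and 17, and then 26, 12 and 23. The 2 exon 9 structures thus had their lowest later values in IGF-1 replicate 1 of day 45. Over those 9 libraries E6-E3 ranged from 6 to 24 reads, E18-E3 from 3 to 18, E6-E4 from 0 to 14 and E14-E3 from 5 to 11. The remaining 13 SUCO structures had at most 18 reads each, and 7 of them had a single read.

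Against day 0, ZFPM2 at untreated day 45 was at least 83.4-fold higher, and at least 11.4-fold higher without replicate 1, by reads pooled over the group, taking 3 counts over the day 0 group as the limit. By mean RPM, SUCO was 32.0-fold higher at untreated day 45, and 16.3-fold without replicate 1. From untreated day 45 to untreated day 90 the ratio of mean RPM was 0.0611 for ZFPM2 and 0.386 for SUCO. Without replicate 1 of day 45 these became 0.524 and 0.759. The ratio of IGF-1 to untreated mean RPM at day 45 was 0.790 for ZFPM2 and 0.394 for SUCO, and 0.775 for SUCO without untreated replicate 1. For ZFPM2 this ratio depended on which high library was kept, at 6.78 without untreated replicate 1 and 0.119 without IGF-1 replicate 1. These values are descriptions, since they or the library behind them chose the genes. Structures of SUCO with donors other than exon 9 moved less, with ratios of 4.35 from day 0 to untreated day 45 and 0.735 from there to day 90.

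The IGF-1 libraries gave comparisons that the choice of genes did not use directly, although 1 arm of the first and of the last, day 0 and untreated day 90, held counts that the choice did use. In edgeR's quasi-likelihood test of day 0 against day 45 with IGF-1, fitted over all 12498 structures with at least 10 reads and adjusted by the Benjamini-Hochberg method, 3 ZFPM2 and 8 SUCO structures could be tested. Of these 11, 7 were called higher and none lower (8 with an unadjusted p under 0.05, and 7 higher and none lower by DESeq2's Wald test), where 30.5% of all tested structures were called higher, 0.224% lower and 30.7% in either direction. A member could pass the read minimum through the later libraries alone, so this count is no support by itself. E3-E2 (0 reads at day 0, at least 59.4-fold higher, adjusted p = 8.49e-20) and E4-E2 (0 against 12 reads, at least 4.29-fold, adjusted p = 0.00495) rose in ZFPM2. Without IGF-1 replicate 1, which held 147 of its 166 reads in that group, E3-E2 was at least 9.41-fold higher. In SUCO, E9-E3 went from 1 to 266 reads, a ratio of pooled counts per read of 285 (95% counting interval 50.8 to 11313, adjusted p = 2.13e-22), and E9-E4 from 2 to 67 reads, a ratio of 35.9 (9.57 to 303, adjusted p = 8.86e-09). E14-E3 went from 1 to 26 reads (27.9, interval 4.58 to 1143, adjusted p = 0.000272) and E18-E3 from 3 to 18 (6.44, interval 1.88 to 34.1, adjusted p = 0.0180). E6-E3 rose by 2.30 ± 0.64 on the log2 scale (SE, 9 to 44 reads, adjusted p = 0.00257), and E6-E4 had a log2 change of 0.74 ± 0.73 (11 to 18 reads, adjusted p = 0.391).

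The call of E3-E2, E9-E3 and E9-E4 held when library size was set by TMM on back-splice totals, which asks for change relative to the general rise of circRNAs. The calls of E4-E2 (adjusted p = 0.151), E14-E3 (0.0765), E18-E3 (0.483) and E6-E3 (0.447) were lost under it, and E4-E2 was also lost without IGF-1 replicate 1 (0.111). The median log2 change of all structures was 2.70 with sequenced reads as library size and 1.61 with TMM. Calls split into 3806 higher and 28 lower with sequenced reads, 690 and 97 with TMM, and 249 and 158 with DESeq2's size factors.

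Summed over structures, both genes rose from day 0 to day 45 with IGF-1, in a comparison that called 55.3% of 4933 genes higher, 0.324% lower and 55.6% in either direction. SUCO rose by 3.65 ± 0.43 on the log2 scale (SE, edgeR adjusted p = 3.27e-15), beside a median of 2.52 over all genes. With TMM the SUCO change was 1.70 (adjusted p = 0.000396) beside a median of 0.77. ZFPM2 was at least 65.8-fold higher (edgeR adjusted p = 1.54e-22), and at least 11.4-fold without IGF-1 replicate 1 (adjusted p = 4.52e-07). Gene calls split into 2729 higher and 16 lower with sequenced reads, 488 and 137 with TMM, and 331 and 198 with DESeq2's size factors.

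The level of each gene at day 0 was also compared with all 6 IGF-1 libraries by a two-sided exact permutation test. Here too the day 0 arm held counts that the choice of genes had used, so its p-values are no independent support. For SUCO, the mean was 0.0919 RPM at day 0 and 1.22 RPM with IGF-1, and the IGF-1 libraries, from 0.738 to 1.84 RPM, did not overlap the day 0 libraries, at most 0.120 (exact permutation p = 0.0238). For ZFPM2, the mean was 0 at day 0 and 0.329 RPM with IGF-1, with 6 of 6 IGF-1 libraries above every day 0 library, from 0.0428 to 1.52 RPM (exact permutation p = 0.0238). This p doubles the one-sided value, and 0.0238 is the smallest that this form gives with 3 against 6 libraries. When the absolute difference of the means was permuted instead, a form added after the first p-values had been seen, the exact permutation p was 0.345 for ZFPM2 and 0.0119 for SUCO. The call for ZFPM2 thus depends on how a two-sided p is formed. Without IGF-1 day 45 replicate 1, the ZFPM2 mean of the 5 other libraries was 0.0897 RPM and the exact permutation p was 0.0357 in both forms. All back-splice reads together also lay apart, at 106 to 128 RPM at day 0 and 474 to 696 RPM with IGF-1. How many other genes lay apart in this way was not counted, so the separation cannot be called particular to the 2 genes.

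Between day 45 and day 90 with IGF-1, ZFPM2 fell by 2.57 ± 0.45 on the log2 scale (SE, edgeR adjusted p = 2.74e-05), in a comparison that called 0.0203% of genes lower, ZFPM2 being the only one, 0.0608% higher and 0.0811% in either direction. E3-E2 fell by 2.53 ± 0.47 (edgeR adjusted p = 0.00108), the only structure called lower (0.00800% of those tested, with 0.0160% called in either direction). Both calls rested on replicate 1 of day 45. Without that library the log2 change was 0.13 for the gene and 0.30 for E3-E2, each with an adjusted p of 1. The replicate number as a block gave log2 changes of -1.39 and -1.29, also with adjusted p of 1, and DESeq2's Wald test gave adjusted p of 1 for both. The RPM of replicates 2 and 3 at day 45, 0.127 and 0.0428, overlapped the day 90 range with IGF-1 of 0.0645 to 0.123.

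SUCO showed no called change between day 45 and day 90 with IGF-1, with a log2 change of 0.15 ± 0.36 (SE, edgeR adjusted p = 0.994) and groups that overlapped. Its sign turned without IGF-1 replicate 1 of day 45 (-0.09) and without replicate 1 of day 90 (-0.19). None of the 8 SUCO structures tested was called by edgeR or by DESeq2's Wald test, and 0 had an unadjusted p under 0.05 by either. Between untreated and IGF-1 cultures at day 90, no member was called, by edgeR or DESeq2's Wald test, in a comparison where edgeR called 0.0203% of genes and 0.00800% of structures, all lower. ZFPM2 had 19 reads untreated and 40 with IGF-1, and the RPM ranges did not overlap, 0.0217 to 0.0587 and 0.0645 to 0.123. The log2 change was 1.06 ± 0.53 (SE, edgeR unadjusted p = 0.0472, adjusted p = 1). SUCO had a log2 change of 0.18 ± 0.36 (edgeR adjusted p = 1) and overlapping ranges, and the sign turned with TMM (-0.14). At an unadjusted p under 0.05, edgeR picked 1 of the 3 ZFPM2 structures and 0 of the 8 SUCO structures, and the Wald test picked 0 of either.

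In order of mean level, ZFPM2 was lowest at day 0, followed by untreated day 90 (0.0436 ± 0.0195 RPM, SD, n = 3), day 90 with IGF-1 (0.0928 ± 0.0295), day 45 with IGF-1 (0.564 ± 0.832) and untreated day 45 (0.715 ± 1.09). The SD at day 45 exceeded the mean in both groups, and their libraries overlapped each other and those of day 90 with IGF-1. The 2 day 90 groups did not overlap, but on only 3 to 18 reads a library and without a call. How many other genes lay apart at day 90 was not counted. SUCO was lowest at day 0 (0.0919 ± 0.0280 RPM, SD, n = 3), followed by untreated day 90 (1.13 ± 0.0713), day 45 with IGF-1 (1.16 ± 0.393), day 90 with IGF-1 (1.29 ± 0.475) and untreated day 45 (2.94 ± 2.51). Apart from day 0, each neighbouring pair in that order overlapped. Untreated day 45 and untreated day 90, which are not neighbours in it, did not, with a lowest value of 1.26 and a highest of 1.198 RPM. The number of other genes that lay apart in this pair was not counted.

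Other genes were also high in replicate 1 at day 45, but seldom in both treatments among genes with at least 100 reads in each. After ZFPM2, the highest shares at untreated day 45 belonged to ANK3 (76.1%), LRCH1 (74.2%), NRXN2 (73.2%), SLCO5A1 (70.4%) and GLCCI1 (70.2%). With IGF-1, VCAN (78.6%), SYNE2 (61.7%), LIFR (60.9%) and SLCO5A1 (56.9%) were among the next highest. Over 525 genes with at least 100 reads in each treatment, the replicate 1 shares had a Pearson r of 0.473 and a Spearman rho of 0.432, a description across genes of the same 6 libraries. Above 70% lay 2 of these genes in untreated and 2 in IGF-1 cultures, ZFPM2 being 1 of each. SLCO5A1 (70.4 and 56.9%), SYNE2 (56.8 and 61.7%) and ADGRB3 (61.6 and 53.4%), picked out here after their values were seen, were also high in both. Genes with under 100 reads in either treatment were left out of this comparison. Among them, LRIG1 had 19, 6 and 9 reads untreated and 23, 2 and 6 with IGF-1, most of them in replicate 1 of both. The same held for HECW1, with 44, 9 and 14 reads untreated and 25, 14 and 9 with IGF-1.

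**Figure D4:**
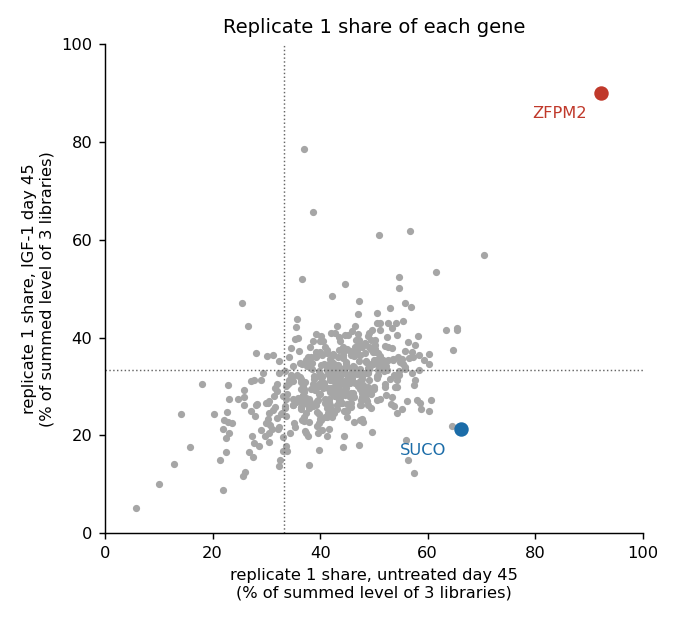
Share of the summed day 45 level (RPM) found in replicate 1, in percent, for 525 genes: untreated cultures on the horizontal axis and IGF-1 cultures on the vertical axis. Dotted lines mark equal parts over the 3 libraries. ZFPM2 lies at 92.2 and 90.0%, apart from the other genes plotted, and SUCO at 66.1 and 21.2%.

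Across the 12 later libraries, the genes most like ZFPM2 among 1905 others with at least 100 reads, by Pearson r of log2(RPM + 0.1), were SYNE2 (0.962), SLCO5A1 (0.948), LRIG1 (0.926), ADGRB3 (0.923) and HECW1 (0.914). SYNE2, which encodes a nuclear envelope protein that links the nucleus to the cytoskeleton, had 137, 52 and 83 reads at untreated day 45 and 151, 72 and 49 with IGF-1. The genes most like SUCO were POLR3A (0.959), a subunit of RNA polymerase III, PTBP3 (0.913), AP3B1 (0.912), MVB12B (0.909) and UBP1 (0.907). POLR3A had 27, 13 and 6 reads at untreated day 45 and 3, 13 and 11 with IGF-1. ZFPM2 and SUCO were little alike, with an r of 0.429, rank 954 from ZFPM2 and rank 1171 from SUCO. These are descriptions over libraries of unequal depth, and without untreated day 45 replicate 1 only 3 of the 5 genes stayed for ZFPM2 and 1 of the 5 for SUCO.

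The structures of the 2 genes differed in their introns. The intron before exon 2 of ZFPM2 measures 100162 bases, longer than the upstream intron of 98.02% of 10852 tested structures with both introns annotated, and the intron after exon 3 measures 116981 bases, longer than 98.77% of the downstream ones. The medians were 7532 and 6430 bases. For SUCO E9-E3 the introns measure 18014 and 3160 bases, longer than 72.05% and 28.07%. Reads entered ZFPM2 at exon 2 in 98.1% of cases, and SUCO at exon 3 in 81.9% and exon 4 in 17.0%. Of SUCO reads, 78.7% had exon 9 as donor, 10.98% exon 6 and 5.28% exon 18.

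Of 29 genes that encode GATA factors and partners of FOG proteins, 13 could be tested, and 6 were called higher and 0 lower from day 0 to day 45 with IGF-1 by edgeR and by DESeq2's Wald test (8 and 6 with an unadjusted p under 0.05). The share called higher by edgeR, 46.2%, stood beside 55.3% of all genes. No member was called higher with TMM, which called 1 lower, or with the size factors of DESeq2, which called 2 lower, so the direction of this list depended on the library size used. CTBP2, a corepressor, had a log2 change of 1.08 ± 0.43 (SE, edgeR adjusted p = 0.0249), of -0.88 with TMM and of -1.19 with DESeq2's size factors, where it was called lower (edgeR adjusted p = 0.0115). MTA3, a NuRD subunit, had one of 1.79 ± 0.56 (edgeR adjusted p = 0.00409), and of -0.14 with TMM. CTBP1, another corepressor, rose by 2.59 ± 0.64 (edgeR adjusted p = 0.000217), and had a change of 0.70 without a call with TMM.

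Of 20 SUN and KASH proteins and partners at the nuclear envelope, 9 could be tested, and 6 were called higher and 0 lower by either tool (6 with an unadjusted p under 0.05), 66.7% beside 55.3% of all genes, or 2 higher and 0 lower with TMM and 2 and 1 with DESeq2's size factors. SYNE2 rose by 4.32 ± 0.49 on the log2 scale (edgeR adjusted p = 3.15e-16, and 0.000116 with TMM). The nucleoporin NUP153 had a change of 1.72 ± 0.53 (edgeR adjusted p = 0.00332), and of -0.20 with TMM. The lamin B receptor LBR went from 0.00238 to 0.118 mean RPM (edgeR adjusted p = 2.07e-07). Of 21 genes for collagen secretion and ossification, 9 could be tested, and 3 were called higher and 0 lower by either tool (4 by edgeR and 3 by the Wald test with an unadjusted p under 0.05), 33.3% beside 55.3% of all genes, or 2 higher and 0 lower with TMM or DESeq2's size factors. PLOD2, a collagen lysyl hydroxylase, rose by 3.56 ± 0.46 (edgeR adjusted p = 8.27e-13). SEC23A, a coat protein of secretory vesicles, rose by 2.56 ± 0.84 (edgeR adjusted p = 0.00633), a call lost with TMM. P4HA1, a collagen prolyl hydroxylase, was at 0 reads at day 0 and 0.0558 ± 0.0243 RPM at day 45 with IGF-1 (SD, n = 3, edgeR adjusted p = 1.56e-05).

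With genes at 0 reads at day 0 set to their bound, the median log2 change from day 0 to day 45 with IGF-1 was 1.81 for the GATA and FOG list, 1.78 for the nuclear envelope list and 0.52 for the collagen list, in which 6 of 9 genes were at 0, beside 1.84 over all genes. The fitted medians were 1.88, 1.78 and 3.25 beside 2.52. No gene of these lists was called by edgeR or the Wald test between day 45 and day 90 with IGF-1 or between treatments at day 90. At an unadjusted p under 0.05 edgeR picked 2, 1 and 1 genes of the 3 lists in the former comparison and 0, 0 and 1 in the latter.

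Markers of the cells that the cultures could hold gave few back-splice reads, so the labels could be checked with them only weakly. Of 12 pluripotency markers 5 had reads, 11 in all, and POU5F1, NANOG and SOX2 had none. Of 18 retinal progenitor and neural retina markers 3 had reads, 17 in all, and PAX6, RAX and CRX had none. Their summed level was 0.00903, 0 and 0.0205 RPM in untreated day 45 replicates 1, 2 and 3. With IGF-1 it was 0.0378, 0.0299 and 0.00713 RPM, so that here replicate 1 was the highest. Of 12 retinal pigment epithelium markers 8 had reads, 99 in all, with none in the day 0 libraries and 0.0217 to 0.113 RPM over the day 90 libraries, while MITF and RPE65 had none. At day 45 they summed to 0.0451, 0.0434 and 0.0341 RPM in untreated replicates 1, 2 and 3 and to 0, 0.127 and 0.0357 RPM with IGF-1. Of 13 heart and muscle markers 6 had reads, and their summed level was 0.0271 RPM in untreated day 45 replicate 1 and 0.0189 in IGF-1 replicate 1, against 0.0650 and 0.0478 in untreated replicates 2 and 3 and 0.0673 and 0 in IGF-1 replicates 2 and 3. TNNT2, MYH7 and NKX2-5 had none. Mesenchyme markers, 8 of 13 with reads, summed to 0.0542, 0.0361 and 0 RPM in untreated day 45 replicates 1, 2 and 3 and to 0.00946, 0.0747 and 0.0214 RPM with IGF-1. Of the other lists, 3 of 15 markers of the central nervous system, 2 of 10 of neural crest and surface ectoderm and 1 of 9 of endoderm had reads. The central nervous system markers summed to 0.0361, 0.0650 and 0.0546 RPM at untreated day 45 and to 0, 0.0523 and 0.0214 RPM with IGF-1, so that replicate 1 was the lowest of each group. Neural crest and surface ectoderm markers had 0, 0.0289 and 0 RPM at untreated day 45 and 0, 0.0897 and 0 with IGF-1, but 0.112 to 0.143 at day 0. All of these reads came from GRHL2, with 14, 19 and 20 at day 0, while SOX10, TFAP2A and FOXD3 had none. They therefore describe that gene and not the list. The endoderm marker with reads, EPCAM, had 0.0181, 0.0289 and 0.0136 RPM at untreated day 45 and 0, 0.0299 and 0 with IGF-1. At day 0 it had 0.00801 to 0.0856 RPM, while SOX17, FOXA2 and AFP had no reads in any library. The part of cell makeup in the replicate 1 values was not tested.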

How the data were processed

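The deposited table gives raw back-splice read counts of each circRNA structure in each of the 15 libraries. The authors made these counts with PTESFinder, which searched the reads for joints between exons of GENCODE 19 transcripts (hg19), and neither normalised nor pooled them. Library names carry the letters a, b and c, read here as replicates 1, 2 and 3. Genes were assigned with GENCODE 44 on GRCh37, 48401 structures by transcript and 6744 by exon ends. RPM used the numbers of sequenced reads listed by the study. For untreated day 90 replicates 1 and 2, which that list does not tell apart, the mean of both entries was used.

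Tests used edgeR 4.0.16 (glmQLFit and glmQLFTest, R 4.3.3) on all 15 libraries with a mean per group, sequenced reads as library sizes and at least 10 summed reads, at an adjusted p of 0.05, and were tested on simulated data. A standard error is the log2 change divided by the square root of F. DESeq2 1.42.0 was an alternative. Permutation tests and Wilson intervals used scipy 1.17.1. The p-values of edgeR and DESeq2 rest on a spread between replicate libraries that is shared over all groups and informed by the other features tested. They therefore do not measure the spread of 1 group alone. Permutation p-values rest on rearranging the libraries.

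The members, gene lists and tests were chosen with earlier results of these data known. Chromosomal positions are 1-based. Named were structures with at least 20 reads, the 5 most similar genes, the 5 genes with the highest replicate 1 share after ZFPM2 and the 3 most read genes of each list. For IGF-1, 1 gene of that ranking is not reported here. Defining markers were named after their values were seen. The 16 amplicon libraries of the series and linear junction counts were not used here, so linear expression of ZFPM2 and SUCO was not analysed here.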

Additional observations from a re-analysis of the deposited data

How the results depend on the processing

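Counts of calls from day 0 to day 45 with IGF-1 depended most on library size. At the circRNA level 3834 calls became 787 with TMM, 407 with DESeq2's size factors and 2389 without a filter, and 2526 to 3527 with 1 library left out. At the gene level 2745 calls became 625 with TMM and 529 with DESeq2's size factors. Between day 45 and day 90 with IGF-1, the 2 circRNA calls (1 higher, 1 lower) became 7 with TMM or DESeq2's size factors (4 higher, 3 lower), 1 without a filter and 0 with at least 50 reads, the replicate block or DESeq2's Wald test, and 0 to 4 with 1 library left out. The 4 gene calls (3 higher, 1 lower) were 4 with TMM, all higher, 1 with at least 50 reads and 0 with the Wald test, and 1 to 7 with 1 library left out. At day 90 the 1 call at each level became 0 with at least 50 reads or the Wald test, and ranged from 1 to 2 (circRNAs) and 0 to 1 (genes) with 1 library left out.

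The ZFPM2 fall between day 45 and day 90 with IGF-1 lost its call at the gene level with TMM, DESeq2's size factors, at least 50 reads, the block and the Wald test, and at the circRNA level with at least 50 reads, the block and the Wald test. It turned to 0.13 and 0.30 without day 45 IGF-1 replicate 1, and reached -3.13 and -3.09 without replicate 3. E3-E2 also lost its call without day 90 IGF-1 replicate 1 (adjusted p = 0.0817) or replicate 2 (0.0900). With 1 library left out, log2 changes reached 1.25 for E6-E4 from day 0, 0.39 (SUCO) and 0.51 (E9-E3) between day 45 and day 90 with IGF-1, and 0.35 and 0.43 at day 90. Signs that turned without a call were those of E6-E4 from day 0 (-0.77 with TMM, -1.38 with DESeq2's size factors, -0.75 without day 45 IGF-1 replicate 2), of SUCO at day 90 (-0.14 with TMM, -0.22 with DESeq2's size factors, -0.16 without IGF-1 replicate 1) and of E9-E3 at day 90 (-0.11, -0.24 and -0.24). Without day 90 IGF-1 replicate 1, E9-E3 between day 45 and day 90 with IGF-1 turned to -0.17, and SUCO turned to -0.19 there and to -0.09 without day 45 IGF-1 replicate 1. E18-E3 lost its call without a filter (adjusted p = 0.0729), without day 0 replicate 3 (0.1004) and without day 45 IGF-1 replicate 3 (0.0788).

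In the permutation tests, the differences of 0.329 RPM (ZFPM2) and 1.13 RPM (SUCO) had a p of 0.0714, the smallest the doubled form gives, without any 1 day 0 library (differences of 0.329 for ZFPM2 and 1.12 to 1.15 for SUCO), and 0.0357 without any 1 IGF-1 library, whose differences ranged from 0.0897 to 0.386 for ZFPM2 and 1.01 to 1.23 for SUCO. Permuting the absolute difference, chosen after seeing the data, gave ZFPM2 a p of 0.345 for the same 0.329 RPM. The replicate 1 share at untreated day 45 was 90.1% (ZFPM2) and 60.4% (SUCO) of raw counts and 88.2% and 55.6% as shares of back-splice reads. Of the 5 most similar genes, ZFPM2 kept 4 with a pseudocount of 1, 1 with Spearman's rho and 3 without untreated day 45 replicate 1, and SUCO kept 3, 1 and 1. Taking only structures matched by transcript, also chosen after seeing the data, left 16 SUCO structures. Same-numbered libraries deviated together in 1 of the 9 tested pairs (correlation over 0.1) and in 6 of 30 over all groups, so the numbers were not taken to pair them in the tests. All 3 pairs of untreated and IGF-1 day 45, a contrast without a test, were over 0.1, but so was untreated replicate 2 with IGF-1 replicate 3 (0.195). The replicate block gave 3324 circRNA and 2596 gene calls from day 0 to day 45 with IGF-1 and changed no other call of a member given here than those named. The cause of these changes was not tested. Outside the 2 high libraries ZFPM2 rests on 3 to 18 reads a later library.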
